A study of Mus musculus with 12 samples.

Results

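Genes for the subunits of the mitochondrial respiratory chain and ATP synthase that are encoded in the nucleus were followed in C2C12, a line of mouse myoblasts able to fuse into myotubes, 72 h after transfection. They were every gene on the arrays whose mouse symbol started with Ndufa, Ndufb, Ndufc, Ndufs, Ndufv, Sdha to Sdhd, Uqcr, Cox4 to Cox8 or Atp5. Of 97 genes with such a symbol, 8 Ndufaf and 4 Sdhaf assembly factors and the muscle isoforms Cox6a2 and Cox8b were left out. This left 83 of the 20659 genes with a reference symbol: 38 of complex I, 4 of complex II, 8 of complex III, 16 of complex IV and 17 of complex V. The rule uses no measured value, and each gene was read from its brightest probe.

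RNA was measured on 12 one-colour Agilent arrays in 4 groups of 3. By the transfection field of the labels, the cells had received siRNA, the plasmid pcDNA3.1-MEG3, the plasmid pcDNA3.1 or a negative control. The titles name the siRNA group as knockdown and the pcDNA3.1-MEG3 group as overexpression of MEG3, a long non-coding RNA. All groups shared the parent line, the growth medium with serum and the time, and the labels leave unstated whether replicates were separate cultures, what the negative control contained or which sequence the siRNA had. The p-values therefore measure only how far these samples spread, and that spread could be technical. In RNA from whole cultures, fewer cells of a type and less RNA per cell cannot be told apart.

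Oxidative phosphorylation passes electrons from NADH through complex I and from succinate through complex II to coenzyme Q, then through complex III, cytochrome c and complex IV to oxygen. Complexes I, III and IV pump protons across the inner mitochondrial membrane, and complex V, the ATP synthase, uses the gradient to make ATP. Complex IV has subunits with alternative isoforms, and skeletal muscle is known to swap some ubiquitous isoforms for muscle isoforms as it matures. Subunits encoded in the mitochondrial DNA were not measured here.

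On each array, 61.2% to 75.8% of 39429 probes gave a signal well above background. The array's 75th percentile of signal lay between 1168 and 2266. Levels below are log2 signals minus that percentile, so they compare arrays for 1 probe and never 2 probes. Replicates 1 and 3 of the siRNA, pcDNA3.1-MEG3 and pcDNA3.1 groups lay at the same slide position and differed by 0.096, 0.239 and 0.192 times the spot-to-spot noise of 1 array. Those of the negative control, at separate positions, differed by 0.83 times that noise. Replicate 2 differed from the others by 0.958 and 0.975 times the noise in the siRNA group, 0.877 and 0.886 in the pcDNA3.1-MEG3 group and 0.938 and 0.942 in the pcDNA3.1 group, so these arrays too lay within it. Replicates 1 and 3 of each group were counted as 1 sample and replicate 2 as another, giving n = 2 per group, and the spot noise alone does not set this choice. Negative control replicate 2 stood apart, at 2.7 and 2.46 times the spot noise from replicates 1 and 3. These ratios hide a difference in the noise, which was 0.384 to 0.434 log2 in the siRNA group and 0.152 to 0.22 elsewhere. In log2 units, replicates 1 and 2 differed by an SD of 0.375 in the siRNA group and 0.43 in the negative control. In the pcDNA3.1-MEG3 and pcDNA3.1 groups this SD was 0.152 and 0.195. The siRNA arrays, the plasmid arrays and the negative control arrays lay on 3 separate slides, so outside the plasmid comparison the slide and the group cannot be told apart. Meg3 went against the plasmid labels: probe A_51_P455997 was detected above background on none of the arrays labelled pcDNA3.1-MEG3 (0 of 3) but on 3 of 3 labelled pcDNA3.1, at -7.93, -6.58 and -7.59 against -2.47, -2.38 and -2.48. It was detected on 0 of 3 siRNA arrays and 1 of 3 negative control arrays, so the knockdown could not be checked. Group names below are those of the labels, and a direction in the plasmid comparison is tied to the labels alone. Of the myoblast markers, 4 of 7 (Myod1, Des, Cdh15 and Itga7) were well above background on all 12 arrays. So were 4 of 6 fibroblast, 1 of 5 adipocyte, 2 of 4 endothelial and 2 of 3 leukocyte markers.

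All members but Cox8c were tested. Cox8c, a cytochrome c oxidase isoform known from testis, was not well above background on any of the 12 arrays. Another 80 members were well above background on all 12 arrays, and the chosen probes of Ndufb6 and Cox7c had no usable spot on 2 and 1 of the siRNA arrays. Of the 82 members tested, 9 were called at least once by limma at an adjusted p under 0.05 and 73 in none of the 4 comparisons, and 31.2% of all genes were called at least once. Of the members, 90.2% lay within 1.5-fold between siRNA and negative control arrays, 89.0% between pcDNA3.1 and negative control arrays and 86.6% between siRNA and plasmid arrays. Over all genes tested these shares were 67.4%, 58.1% and 60.3%. These shares describe the levels and were not tested against each other. The sets also differ in signal: the median log2 level per array was 3.949 to 4.501 over the members and -2.122 to -1.853 over all genes tested. All genes were not matched to the members for signal, and its part in these shares and in the calls was not tested.

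**Figure D1:**
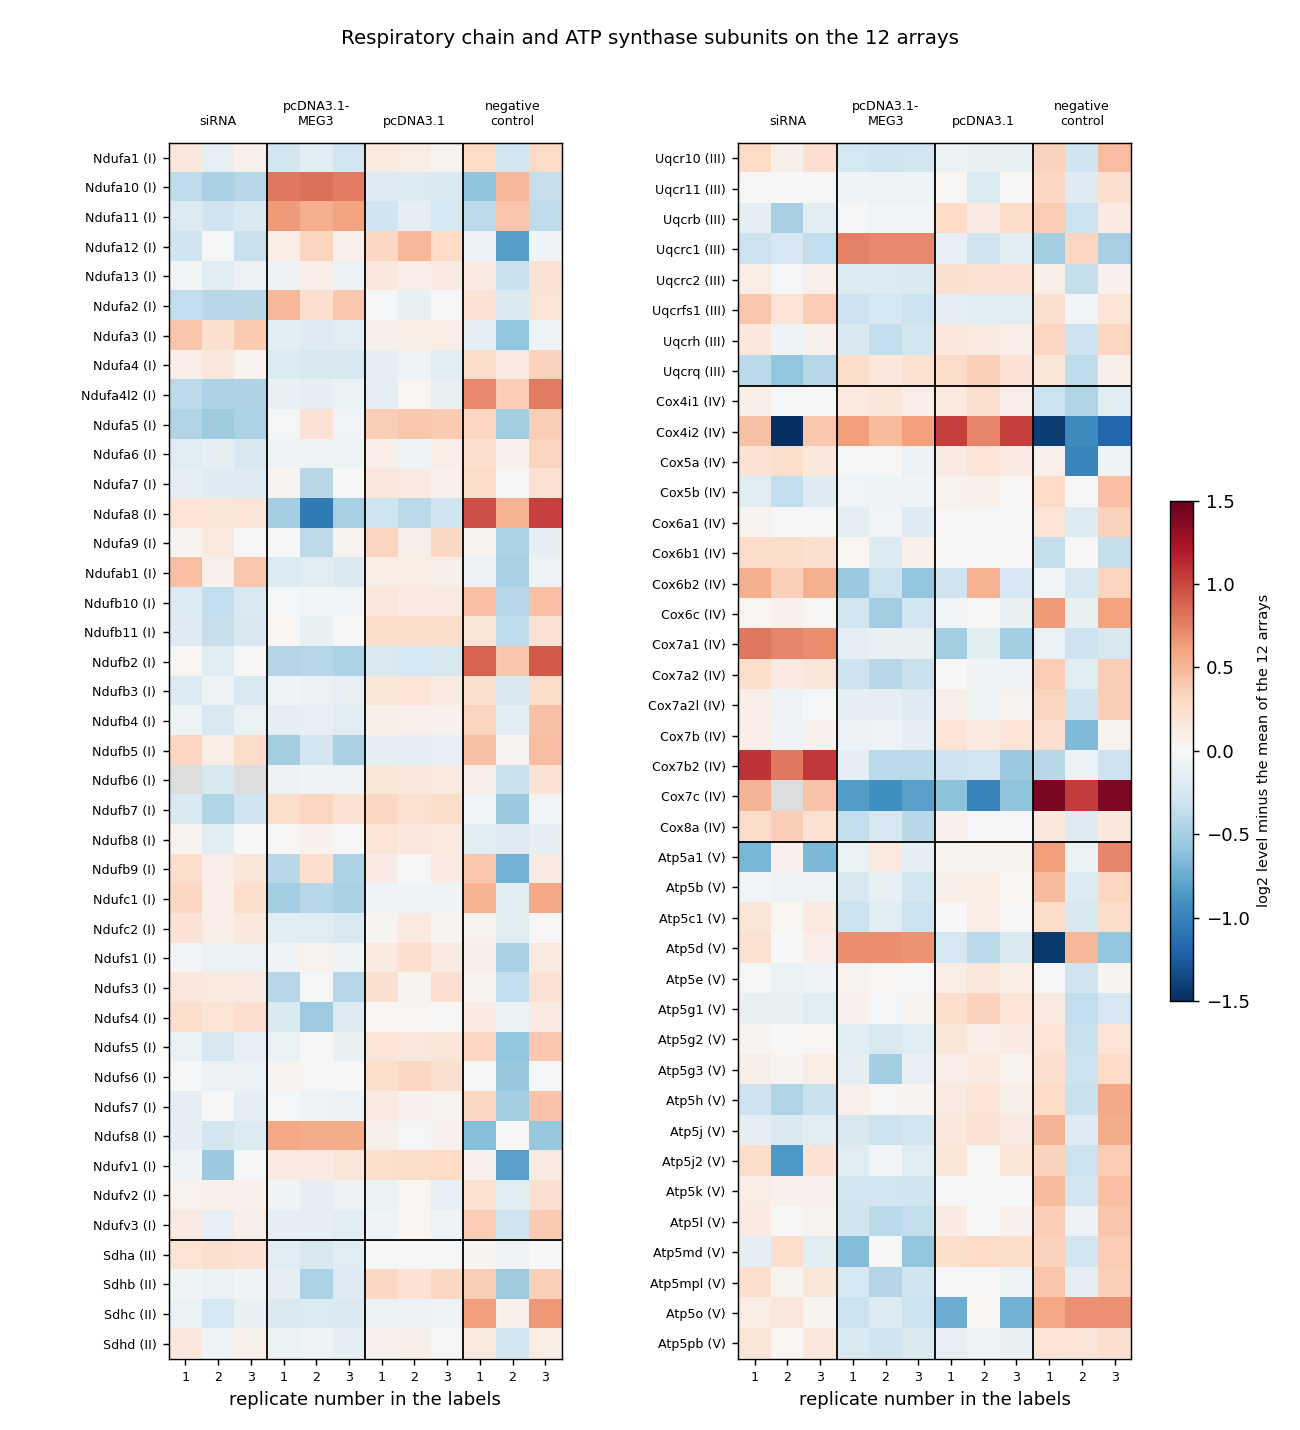
Log2 level of 81 members (rows, with the complex in brackets) on the 12 arrays (columns, by group and replicate number), minus that gene's mean over the arrays; red is higher, blue is lower, grey has no usable spot, and colours end at 1.5 either way. Most rows stay pale, while Cox7a1 and Cox7b2 are red on the siRNA arrays and Cox7c, Ndufa8 and Ndufb2 are red on the negative control arrays.

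The plasmid comparison asked what differed between arrays labelled pcDNA3.1-MEG3 and arrays labelled pcDNA3.1, and it lies within 1 slide. Most subunit genes were slightly lower on the arrays labelled pcDNA3.1-MEG3, with a median log2 change of -0.20, and none passed the test. Of 82 members, 70 (85.4%) had a change below 0, as had 68.8% of all genes, whose median was -0.16, and 12 lay above 0 (31.2% of all genes). Set against that median, 49 members lay below it and 33 above. Limma called 0 of 82 members, against 0.00814% of all genes called. At an unadjusted p under 0.05 there were 5 members (6.1%), against 10.2% of all genes. The 3 arrays of each label did not overlap for 60 members that were lower (73.2%, against 46.5% of all genes) and 8 that were higher (9.76%, against 17.9%). Within the first scan of the slide 70 members were lower, with a median of -0.20 (all genes -0.16). Within the second scan, with 1 array per label, 67 were lower, and the median was -0.20, against -0.21 over all genes.

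A group of 7 members ran the other way, at changes of 0.42 or more on the arrays labelled pcDNA3.1-MEG3, while the other 75 lay between -0.60 and 0.22. They came from complexes I, III and V. Among them were Ndufa10 and Ndufa11, accessory subunits of complex I. Ndufa10 read 0.99, 1.03 and 0.97 on the pcDNA3.1-MEG3 arrays, against 0.01, 0.00 and -0.03 on the pcDNA3.1 arrays (log2 change 1.01, SE 0.31, limma adjusted p = 0.382). Ndufa11 read 1.66, 1.56 and 1.62 on the pcDNA3.1-MEG3 arrays, against 0.72, 0.87 and 0.75 on the pcDNA3.1 arrays (log2 change 0.80, SE 0.27, limma adjusted p = 0.425). For both genes the arrays of the 2 labels did not overlap. Each SE pools a gene's spread over all 4 groups, the negative control included. For Ndufa10 the SD between samples was 0.033 in the pcDNA3.1-MEG3 group, 0.003 in the pcDNA3.1 group and 0.689 in the negative control.

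Uqcrc1, a core protein of complex III, read 1.51, 1.48 and 1.48 on the pcDNA3.1-MEG3 arrays, against 0.63, 0.46 and 0.60 on the pcDNA3.1 arrays (log2 change 0.95, SE 0.28, limma adjusted p = 0.357). Atp5d, the delta subunit in the central stalk of ATP synthase, read 3.30, 3.29 and 3.27 on the pcDNA3.1-MEG3 arrays, against 2.35, 2.20 and 2.39 on the pcDNA3.1 arrays (log2 change 1.01, SE 0.46, limma adjusted p = 0.533). Neither gene overlapped between the labels. Smaller changes were those of Ndufs8, an iron-sulfur core subunit of complex I, at 0.54 (SE 0.22, limma adjusted p = 0.49), and Ndufa2, an accessory subunit, at 0.42 (SE 0.18, limma adjusted p = 0.509). The genes furthest below 0 were Atp5md at -0.60, a small subunit of ATP synthase, Sdhb at -0.58 and Cox6b2 at -0.57, with limma adjusted p = 0.564, 0.564 and 0.565.

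The same 7 genes were looked at on the negative control arrays, which lie on another slide. Negative control replicate 2 was higher than replicates 1 and 3 for 6 of the 7, all but Ndufa2, and for 4 of the other 75 members. Over all genes it was higher for 33.5%. At a plasmid change above 0, a wider limit than that of the 7, it was higher for 8 of 12 members (66.7%), against 58.3% of all genes. Ndufa10 read -0.40, 0.70 and -0.15 on the negative control arrays. Atp5d read 1.15, 3.11 and 2.03 on the negative control arrays. Over all members, replicate 2 was lower for 72 of 82 (87.8%, against 66.5% of all genes), with a median difference of -0.49, against -0.22 over all genes. Across the 82 members this difference and the plasmid change correlated at r = 0.77 (Spearman's rho 0.41), and across 24541 genes at r = 0.48 (rho 0.40). These are descriptions across genes, which are not independent of each other and share the arrays and their scaling. What sets the split was not tested. In the plasmid comparison limma also called 0 genes of each of the other lists described below.

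**Figure D2:**
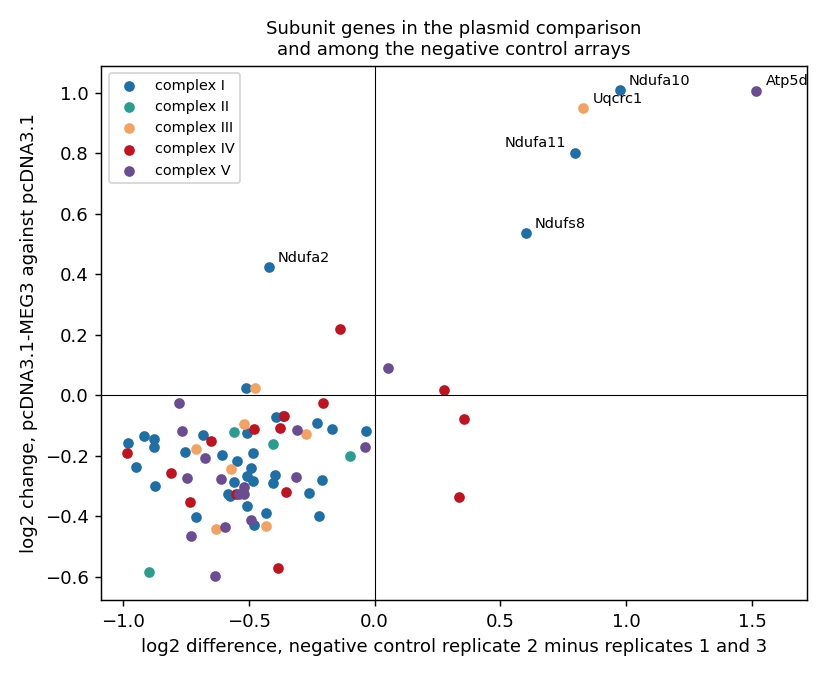
For 81 members (points, coloured by complex), the log2 difference of negative control replicate 2 minus the mean of replicates 1 and 3 (x axis) and the log2 change of pcDNA3.1-MEG3 against pcDNA3.1 (y axis). The members above 0.3 on the y axis are named, and all of these but Ndufa2 lie right of 0.

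The choice of probe mattered here. Other probes that passed the filter were present for 22 members, 29 in all, and 11 of the 29 had the opposite sign to the gene's brightest probe in the plasmid comparison. In the comparisons below, 9 had it for siRNA against negative control, 15 for pcDNA3.1 against negative control and 5 for siRNA against both plasmid groups. For Ndufb11 the brightest probe gave -0.33 and the other 1.42, and for Ndufv3 the brightest gave -0.13 and the other 1.15. Ndufb11 and Ndufv3 are complex I subunits. The dimmer probes of Sdhb and Sdhc gave 0.41 and 0.31, against -0.58 and -0.12 from the brightest. On negative control replicate 2 these 4 dimmer probes were also higher than on replicates 1 and 3, by 1.11 for Ndufb11, 0.76 for Ndufv3, 0.26 for Sdhb and 0.14 for Sdhc. The remaining probes of opposite sign were mixed there. Those of Cox7a2l and Uqcr10 were higher on replicate 2, with differences of 0.495 and 0.167. Those of Atp5h, Uqcrb, Uqcrq, Atp5j2 and Cox7c were lower, with differences of -0.063, -0.823, -0.11, -0.038 and -0.04.

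The knockdown comparison asked what differed between siRNA and negative control arrays. Cox7a1 and Cox7b2, both of complex IV, rose on the siRNA arrays, by 1.97-fold and 2.22-fold, and Ndufa4l2 fell 2.02-fold. No other member passed. The 3 calls are 3.66% of the members, against 12.4% of all genes called (7.77% higher and 4.66% lower). At an unadjusted p under 0.05 there were 11 members, against 28.8% of all genes. The arrays did not overlap for 12 members that were higher (14.6%, against 27.7% of all genes) and 13 that were lower (15.9%, against 17.1%). Over the 82 members the median log2 change was -0.01, against 0.06 over all genes. Of the members 40 lay above 0 (54.2% of all genes) and 42 below (45.8%). The order of these medians turned under quantile normalization and in the authors' series table, where the members' median was 0.04 and 0.08 above that of all genes.

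Cox7a1 encodes the heart and skeletal muscle isoform of cytochrome c oxidase subunit 7a. Its level was -1.77, -1.83 and -1.86 on the siRNA arrays, against -2.67, -2.87 and -2.80 on the negative control arrays, so that all 3 siRNA arrays stood above all 3 negative control arrays (log2 change 0.98, SE 0.16, limma adjusted p = 0.0195). Its ubiquitous counterpart Cox7a2 read 5.17, 5.03 and 5.08 on the siRNA arrays, against 5.28, 4.73 and 5.27 on the negative control arrays (log2 change 0.07, SE 0.20, limma adjusted p = 0.858), with the groups overlapping. Cox7a2l, known for its part in joining complexes into supercomplexes, read 5.55, 5.38 and 5.44 on the siRNA arrays, against 5.79, 5.15 and 5.82 on the negative control arrays (log2 change -0.04, SE 0.23, limma adjusted p = 0.928), also overlapping.

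The promoters of this isoform pair are shown because 1 of the 2 genes rose and the other did not pass. They are RefSeq sequences of build GRCm38.p6, 250 bases before to 50 after the gene start, with the E-box letters CANNTG, which read the same on both strands, in capitals. The muscle form lies at chr7:30183921-30184220 on the plus strand and the ubiquitous form at chr9:79759804-79760103 on the minus strand.
Cox7a1: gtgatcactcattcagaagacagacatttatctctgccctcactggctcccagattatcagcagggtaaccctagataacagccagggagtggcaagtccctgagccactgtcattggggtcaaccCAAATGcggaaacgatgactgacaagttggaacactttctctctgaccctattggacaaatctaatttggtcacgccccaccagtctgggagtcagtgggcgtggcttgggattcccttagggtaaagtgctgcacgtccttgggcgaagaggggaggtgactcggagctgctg
Cox7a2: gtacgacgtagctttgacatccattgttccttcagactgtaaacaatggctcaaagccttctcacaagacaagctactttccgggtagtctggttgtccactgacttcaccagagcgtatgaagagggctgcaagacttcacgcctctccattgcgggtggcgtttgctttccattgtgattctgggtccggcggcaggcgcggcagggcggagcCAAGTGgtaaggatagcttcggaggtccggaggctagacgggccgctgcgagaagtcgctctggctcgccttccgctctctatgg
Each window held the letters once. They occur in the windows of 75% of 27025 genes and of 69.1% of the 68 members whose symbol has a window in the table, 47 genes. The form CAGCTG occurred in 7.35% of these members' windows (5 genes) and in 18.3% of all genes' windows, and in neither of the 2 shown. A match in the letters is a description of the sequence only.

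Cox7b2 is a paralogue of the ubiquitous subunit Cox7b, known in humans from testis. It read -4.43, -4.72 and -4.46 on the siRNA arrays, against -5.93, -5.60 and -5.82 on the negative control arrays, with no overlap (log2 change 1.15, SE 0.17, limma adjusted p = 0.0152). Its signal was the lowest of the members tested, though well above background on all 12 arrays. By normexp its change was 0.748, and the call was lost (limma adjusted p = 0.058). Cox7b itself read 5.15, 5.00 and 5.12 on the siRNA arrays, against 5.31, 4.4 and 5.11 on the negative control arrays (log2 change 0.27, SE 0.27, limma adjusted p = 0.575), with overlap. Ndufa4l2, a relative of Ndufa4 known as a hypoxia-induced gene, read -2.89, -2.97 and -2.96 on the siRNA arrays, against -1.78, -2.12 and -1.73 on the negative control arrays and so was lower on each siRNA array (log2 change -1.01, SE 0.17, limma adjusted p = 0.0192). Ndufa4, which carries a complex I name although its protein is now placed with complex IV, read 5.15, 5.21 and 5.09 on the siRNA arrays, against 5.33, 5.18 and 5.39 on the negative control arrays (log2 change -0.10, SE 0.14, limma adjusted p = 0.674).

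Among uncalled members of complex I the changes ran between -0.74 for Ndufb2 and 0.68 for Ndufa3, and in complex IV between -0.76 for Cox7c and 0.71 for Cox5a. Cox7c had 1 siRNA sample in this fit, since replicate 2 had no usable spot. The furthest member of complex II was Sdhc, a membrane anchor of succinate dehydrogenase, at 3.83, 3.67 and 3.83 on the siRNA arrays, against 4.56, 4.01 and 4.59 on the negative control arrays (log2 change -0.55, SE 0.21, limma adjusted p = 0.151). Replicates 1 and 3 of the negative control lay above every siRNA array for this gene, and replicate 2 lay above them by less. In complex III it was Uqcrq, a small subunit, at 4.93, 4.75 and 4.91 on the siRNA arrays, against 5.52, 4.96 and 5.43 on the negative control arrays (log2 change -0.38, SE 0.20, limma adjusted p = 0.284). In complex V it was Atp5a1, the alpha subunit of the ATP synthase head, at 4.08, 4.84 and 4.10 on the siRNA arrays, against 5.39, 4.67 and 5.51 on the negative control arrays (log2 change -0.60, SE 0.34, limma adjusted p = 0.319). Uqcrq was lower on each siRNA array than on each negative control array, by the smallest step against replicate 2, while for Atp5a1 siRNA replicate 2 stood above negative control replicate 2 and the groups overlapped.

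Skeletal muscle genes moved strongly on the same arrays. All 8 myotube markers rose (median log2 change 3.90), and their summed level was 4.50 to 4.93 on the siRNA arrays and 0.01 to 0.27 on the negative control arrays. Myh3, embryonic myosin heavy chain, changed by 7.05 (SE 0.45, limma adjusted p = 0.00103), and all 8 markers were detected on 2 or 3 arrays of both groups. Of 7 myoblast markers 3 rose and 1 fell, and of 10 interferon response genes 5 rose (median 0.74). Limma called 0 of the 6 fibroblast, 3 adipocyte, 4 endothelial and 3 leukocyte markers tested. The part of these markers in the change of Cox7a1 was not tested. Against the same negative control arrays, 4 of 46 assembly factors rose and 3 fell, with Cox17, a copper chaperone of complex IV, at -3.44 (SE 0.49, limma adjusted p = 0.013) and Ndufaf4 at 0.99 (SE 0.13, 0.00938). Of 21 genes for electron carriers and coenzyme Q synthesis 5 rose and 0 fell. Of 22 regulators of mitochondrial biogenesis 2 rose, Prkaa2 at 1.47 (SE 0.26, limma adjusted p = 0.0221) and Tfam, which packages mitochondrial DNA, at 0.71 (SE 0.14, 0.0329).

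Of 24 genes of the tricarboxylic acid cycle and pyruvate dehydrogenase 2 rose, of 21 glycolysis genes 1 rose, the muscle isoform Pgam2 at 1.45 (SE 0.14, limma adjusted p = 0.00345), and of 18 inner membrane carriers and supercomplex factors none was called. Of 77 mitochondrial ribosomal protein genes 2 rose and 3 fell. Per list, 4.76% to 23.8% of these metabolic lists with a call, and 6.49% of the mitochondrial ribosomal list, were called, against 12.4% of all genes.

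The count of called members moved with single samples. Without negative control replicates 1 and 3 limma called 16 members higher and 6 lower (30.4% of all genes called), without replicate 2 it called 6 higher and 19 lower (30%), and without siRNA replicates 1 and 3 it called 1 (8.01%). Against negative control arrays, Cox7a1 lost its call in 4 of 16 alternatives and Cox7b2 in 2 of 16. With other scalings the split was 1 higher and 2 lower by median centring, 1 and 1 by normexp, 4 and 2 by quantiles and 3 and 3 in the authors' series table, with 8.93% to 14% of all genes called.

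**Figure D3:**
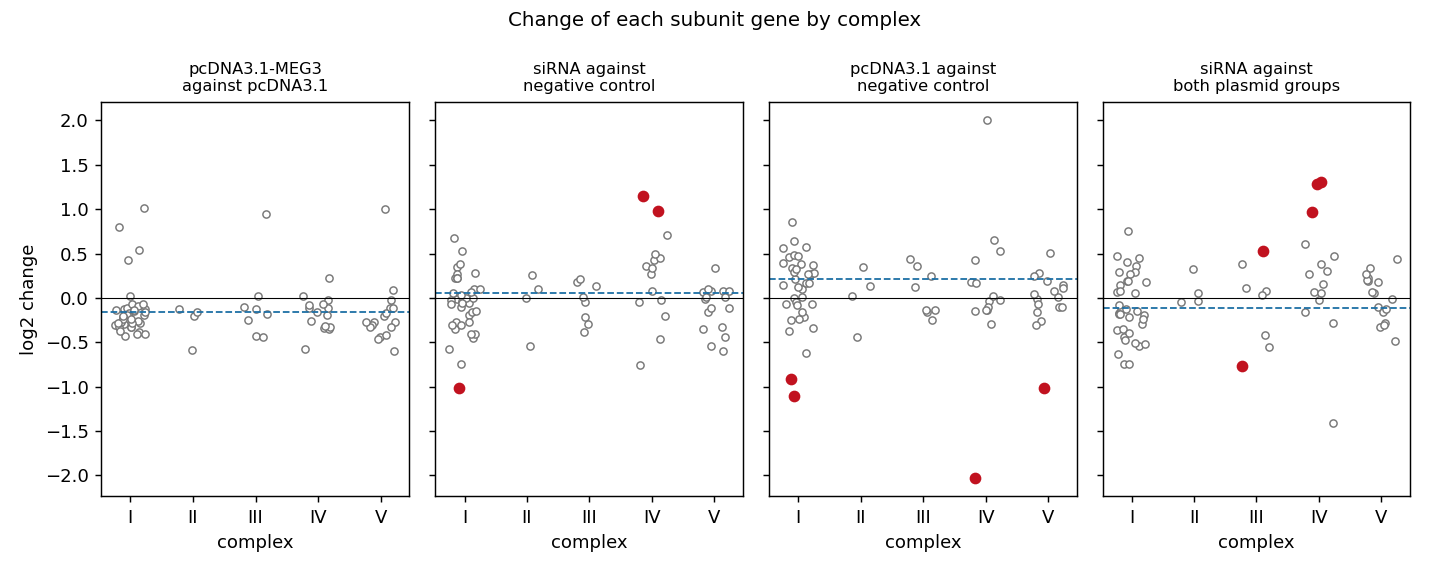
Log2 change of 81 members (points, by complex on the x axis) in the 4 comparisons; filled red points passed limma's adjusted p under 0.05, open points did not, the dashed line is the median of all genes and the solid line is 0. Cox7a1 and Cox7b2 are the 2 filled points of complex IV in the siRNA against negative control panel, and 0 points are filled in the plasmid panel.

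The arrays labelled pcDNA3.1 were also set against the negative control arrays. Meg3 was detected on the arrays labelled pcDNA3.1 and not on those labelled pcDNA3.1-MEG3, so whether this compares cells without added MEG3 cannot be told from the labels. Cox7c, Ndufa8, Ndufb2 and Atp5o fell on the pcDNA3.1 arrays and no member rose. The 4 calls are 4.88% of the members, against 17.9% of all genes called (11.3% higher and 6.64% lower). At an unadjusted p under 0.05 there were 13 members, against 35.8% of all genes. Of the members 46 lay above 0 (63.7% of all genes) and 36 below (36.3%), and the arrays did not overlap for 16 that were higher (19.5%, against 41.3% of all genes). The median log2 change was 0.06 over the members and 0.22 over all genes, and 55 members lay below that all-gene median. This gap depended on the scaling. The members' median minus that of all genes was -0.157 here. It was -0.024 under quantile normalization and -0.016 in the authors' series table, each with 40 members above the all-gene median and 42 below.

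Cox7c, a small ubiquitous subunit of complex IV, read 2.41, 2.03 and 2.44 on the pcDNA3.1 arrays, against 4.44, 4.08 and 4.44 on the negative control arrays, a 4.09-fold fall (log2 change -2.03, SE 0.22, limma adjusted p = 0.00825). Its 3 probes did not give 1 answer: the brightest gave -2.03, the second 0.18 and the third -1.39. Ndufa8, an accessory subunit of complex I, read 2.35, 2.24 and 2.35 on the pcDNA3.1 arrays, against 3.62, 3.16 and 3.67 on the negative control arrays, 2.16-fold lower (log2 change -1.11, SE 0.25, limma adjusted p = 0.0333). Ndufb2, an accessory subunit of the membrane arm of complex I, read 2.70, 2.67 and 2.69 on the pcDNA3.1 arrays, against 3.82, 3.35 and 3.85 on the negative control arrays, 1.88-fold lower (log2 change -0.91, SE 0.19, limma adjusted p = 0.0297). Atp5o, which joins the head of ATP synthase to its peripheral stalk, read 1.78, 2.55 and 1.80 on the pcDNA3.1 arrays, against 3.11, 3.21 and 3.21 on the negative control arrays, 2.02-fold lower (log2 change -1.01, SE 0.26, limma adjusted p = 0.0459). In all 4 genes each pcDNA3.1 array stood below each negative control array, as it did for 10 of 82 members (12.2%) and 18.5% of all genes, and pcDNA3.1 replicate 2 stood closest to the negative control for Atp5o.

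Of the 4 genes that fell, Ndufa8 and Atp5o hold the NRF1 consensus in their RefSeq promoter windows and are shown for it, while the windows of Cox7c and Ndufb2 do not hold it. NRF1 is a transcription factor known for many genes of the respiratory chain. the consensus was searched on both strands, and its match is in capitals. The Ndufa8 window is chr2:36049289-36049588 and the Atp5o window chr16:91931581-91931880, both on the minus strand of GRCm38.p6.
Ndufa8: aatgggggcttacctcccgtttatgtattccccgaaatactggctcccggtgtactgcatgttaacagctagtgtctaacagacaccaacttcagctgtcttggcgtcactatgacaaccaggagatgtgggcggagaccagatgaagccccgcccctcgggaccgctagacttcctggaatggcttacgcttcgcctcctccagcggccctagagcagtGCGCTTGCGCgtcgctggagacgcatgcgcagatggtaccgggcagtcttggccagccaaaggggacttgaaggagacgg
Atp5o: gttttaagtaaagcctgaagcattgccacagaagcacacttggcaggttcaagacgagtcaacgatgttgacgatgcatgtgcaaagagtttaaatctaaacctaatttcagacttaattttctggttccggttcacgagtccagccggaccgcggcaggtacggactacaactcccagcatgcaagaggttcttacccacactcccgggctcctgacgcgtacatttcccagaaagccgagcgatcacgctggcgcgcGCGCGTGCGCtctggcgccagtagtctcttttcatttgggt
The consensus was in the windows of 17 of 68 members (25%) and of 5.19% of 27025 genes. For other factors known at such promoters, the ETS letters CCGGAAG were in 25% of members and 9.93% of genes, and the YY1 letters AAGATGGCG in 10.3% and 1.64%. Where the letters are absent, nothing follows about the factor. Among the regulators of mitochondrial biogenesis, Prkaa2 rose on the pcDNA3.1 arrays by 1.54 on the log2 scale (SE 0.26, limma adjusted p = 0.0157). Ppargc1a, a coactivator of mitochondrial biogenesis, rose by 1.30 (SE 0.19, 0.0116), and the gene for NRF1 itself, Nrf1, fell by 0.53 (SE 0.13, 0.0434). The part of these regulators or of the consensus in the changes of the subunit genes was not tested.

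Cox4i2 had the highest change among uncalled members. It encodes an alternative isoform of cytochrome c oxidase subunit 4 known from lung and from low oxygen. Its level was 0.78, -1.47 and 0.75 on the siRNA arrays, 0.96, 0.81 and 0.95 on the pcDNA3.1-MEG3 arrays, 1.38, 1.07 and 1.37 on the pcDNA3.1 arrays and -1.08, -0.62 and -0.83 on the negative control arrays. The plasmid arrays all stood above the negative control arrays, and siRNA replicate 2 stood below every negative control array, away from siRNA replicates 1 and 3 (log2 change 2.01, SE 0.68, limma adjusted p = 0.0922). The common isoform Cox4i1 read 5.34, 5.21 and 5.25 on the siRNA arrays, 5.40, 5.43 and 5.34 on the pcDNA3.1-MEG3 arrays, 5.39, 5.49 and 5.34 on the pcDNA3.1 arrays and 4.93, 4.80 and 5.07 on the negative control arrays, and was also higher on each pcDNA3.1 array than on each negative control array (log2 change 0.53, SE 0.14, limma adjusted p = 0.0531). The furthest uncalled members elsewhere were Ndufa12 at 0.85 in complex I, Sdhc at -0.45 in complex II, Uqcrq at 0.43 in complex III and Atp5g1 at 0.50 in complex V, with limma adjusted p = 0.0858, 0.182, 0.183 and 0.076. The other probes of Sdhc and Uqcrq had the opposite sign, at 0.21 and -1.14.

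Of 10 interferon response genes 9 rose (median log2 change 4.87), and their summed level was 6.17 to 6.24 on the pcDNA3.1 arrays and 1.25 to 1.40 on the negative control arrays. Their part in the changes of the subunit genes was not tested. Of 7 myoblast markers 2 fell, and 1 fibroblast and 1 adipocyte marker fell. Of 8 myotube markers 1 rose, with a summed level of 0.63 to 0.77 on the pcDNA3.1 arrays and 0.01 to 0.27 on the negative control arrays. Of the other lists, 3 of 46 assembly factors rose and 3 fell, among them Ndufaf8 at -3.07 (SE 0.32, limma adjusted p = 0.00444). Of 21 carrier and coenzyme Q genes 4 rose and 1 fell, with Cyc1, the cytochrome c1 of complex III, at 1.09 (SE 0.16, limma adjusted p = 0.0113). Of 22 regulators 3 rose and 1 fell, of 24 tricarboxylic acid cycle genes 3 rose, of 21 glycolysis genes 2 rose and 1 fell, of 18 carriers 2 rose, and of 77 mitochondrial ribosomal protein genes 5 rose and 1 fell. From assembly factors to mitochondrial ribosomal proteins, 7.79% to 23.8% of each list was called, against 17.9% of all genes.

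The count again moved with single samples. Without negative control replicates 1 and 3 limma called 27 members higher and 8 lower (37.4% of all genes called), and without replicate 2 it called 3 higher and 12 lower (30.3%). Without pcDNA3.1 replicates 1 and 3 it called 1 (2.13%), and without pcDNA3.1 replicate 2 it called 2 (5.3%). With other scalings the split was 0 higher and 11 lower by median centring, 1 and 3 by normexp, 5 and 5 by quantiles and 5 and 4 in the authors' series table, with 11.9% to 21.3% of all genes called. Median centring moves the median of all genes by -0.45 in this comparison.

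**Figure D4:**
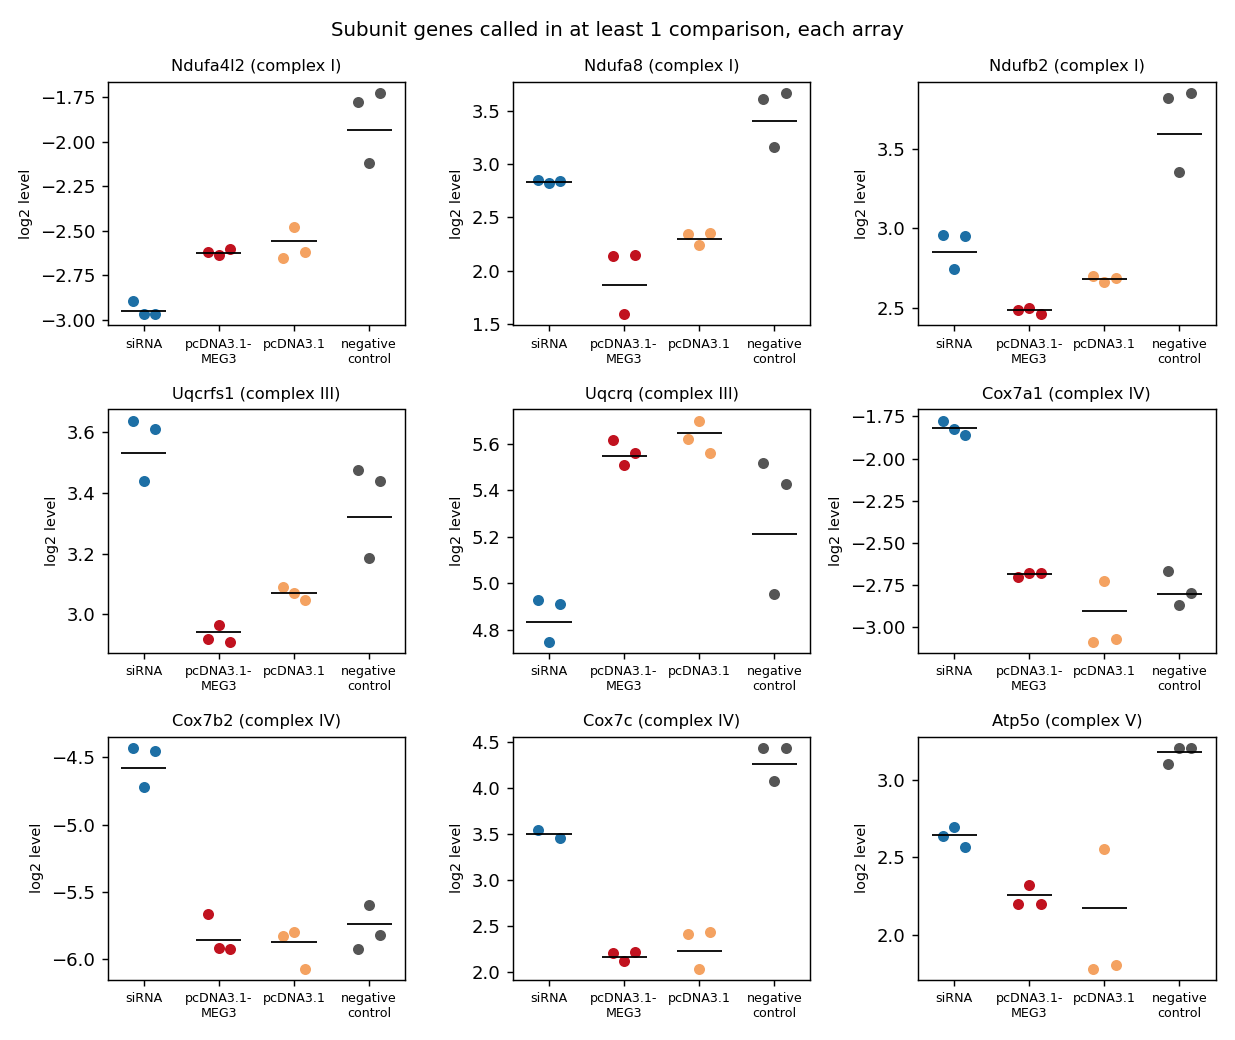
Log2 level (y axis, a scale of its own in each panel) of the 9 members called in at least 1 comparison, on each of the 12 arrays by group (x axis); points within a group are replicates 1, 2 and 3 from left to right and the line is the mean of the 2 samples. Cox7a1 and Cox7b2 stand higher on the siRNA arrays than on all others, and Cox7c has no usable spot on siRNA replicate 2.

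The siRNA arrays were also set against both plasmid groups, since the negative control arrays stood apart among themselves. This comparison shares the siRNA arrays with the knockdown comparison and the pcDNA3.1 arrays with the other 2, so its values are not a repeat of theirs. Cox7b2, Cox7a1 and Uqcrfs1 rose on the siRNA arrays, by 2.43-fold, 1.96-fold and 1.44-fold, and Uqcrq fell 1.70-fold. Cox7c was also called, at 2.48-fold, but from 1 siRNA sample and 1 of its 3 probes. The 5 calls are 6.1% of the members, against 18.7% of all genes called (10.6% higher and 8.12% lower). At an unadjusted p under 0.05 there were 18 members, against 37.0% of all genes. Of the members 42 lay above 0 (42.9% of all genes) and 40 below (57.1%). The median log2 change was 0.04 over the members and -0.11 over all genes.

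Cox7a1 read -1.77, -1.83 and -1.86 on the siRNA arrays, -2.70, -2.68 and -2.68 on the pcDNA3.1-MEG3 arrays and -3.08, -2.73 and -3.07 on the pcDNA3.1 arrays (log2 change 0.97, SE 0.14, limma adjusted p = 0.00868), with every siRNA array above every plasmid array. Cox7b2 read -4.43, -4.72 and -4.46 on the siRNA arrays, -5.66, -5.92 and -5.92 on the pcDNA3.1-MEG3 arrays and -5.83, -5.79 and -6.07 on the pcDNA3.1 arrays (log2 change 1.28, SE 0.15, limma adjusted p = 0.00454), again without overlap. Cox7c read 3.54 and 3.46 on siRNA replicates 1 and 3, 2.20, 2.11 and 2.22 on the pcDNA3.1-MEG3 arrays and 2.41, 2.03 and 2.44 on the pcDNA3.1 arrays (log2 change 1.31, SE 0.24, limma adjusted p = 0.0255, with 1 siRNA sample). Its other probes gave 0.06 and 0.76, the mean of all its probes gave 0.13 (limma adjusted p = 0.806), and the call was lost without any 1 of the plasmid samples (limma adjusted p = 0.053 to 0.0968). Uqcrfs1, the Rieske iron-sulfur protein of complex III, read 3.64, 3.44 and 3.61 on the siRNA arrays, 2.92, 2.97 and 2.91 on the pcDNA3.1-MEG3 arrays and 3.09, 3.07 and 3.05 on the pcDNA3.1 arrays (log2 change 0.53, SE 0.13, limma adjusted p = 0.0445). Uqcrq read 4.93, 4.75 and 4.91 on the siRNA arrays, 5.62, 5.51 and 5.56 on the pcDNA3.1-MEG3 arrays and 5.62, 5.70 and 5.56 on the pcDNA3.1 arrays (log2 change -0.76, SE 0.18, limma adjusted p = 0.034), below all plasmid arrays, and its second probe gave -0.07. The arrays did not overlap for 22 members that were higher (26.8%, against 25% of all genes) and 22 that were lower (26.8%, against 25.2%).

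Of the uncalled members, Ndufa8 was furthest in complex I at 2.85, 2.83 and 2.84 on the siRNA arrays, 2.13, 1.59 and 2.15 on the pcDNA3.1-MEG3 arrays and 2.35, 2.24 and 2.35 on the pcDNA3.1 arrays (log2 change 0.76, SE 0.21, limma adjusted p = 0.0602), with no overlap between siRNA and plasmid arrays. In complex II it was Sdha, the flavoprotein that oxidises succinate, at 3.69, 3.73 and 3.70 on the siRNA arrays, 3.32, 3.25 and 3.31 on the pcDNA3.1-MEG3 arrays and 3.47, 3.49 and 3.47 on the pcDNA3.1 arrays (log2 change 0.33, SE 0.11, limma adjusted p = 0.086), also without overlap. In complex V it was Atp5h, a subunit of the peripheral stalk, at 4.15, 4.01 and 4.12 on the siRNA arrays, 4.53, 4.48 and 4.50 on the pcDNA3.1-MEG3 arrays and 4.59, 4.67 and 4.55 on the pcDNA3.1 arrays (log2 change -0.49, SE 0.22, limma adjusted p = 0.167), lower on each siRNA array. In complex IV Cox4i2 was furthest at -1.41 (SE 0.59, limma adjusted p = 0.141), with the split of the siRNA arrays given above.

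On these arrays 7 of 8 myotube markers rose (median 3.35, summed level 4.50 to 4.93 on the siRNA arrays, 0.79 to 0.83 on the pcDNA3.1-MEG3 arrays and 0.63 to 0.77 on the pcDNA3.1 arrays), and 10 of 10 interferon genes fell (median -4.26, summed level 1.80 to 2.19 on the siRNA arrays, against 6.38 to 6.47 on the pcDNA3.1-MEG3 arrays and 6.17 to 6.24 on the pcDNA3.1 arrays). Of 7 myoblast markers 4 rose, as did 2 of 6 fibroblast and 1 of 3 adipocyte markers. Their part in the subunit changes was not tested. Of 46 assembly factors 3 rose and 3 fell, of 21 carrier and coenzyme Q genes 1 rose, and of 22 regulators 2 rose and 1 fell, with Nrf1 at 0.67 (SE 0.11, limma adjusted p = 0.0133) and Ppargc1a at -1.09 (SE 0.16, 0.00958). Of 24 tricarboxylic acid cycle genes 1 rose, of 21 glycolysis genes 3 rose and 1 fell, and of 18 inner membrane carriers 1 rose, Higd2a at 0.87 (SE 0.14, limma adjusted p = 0.0133). Of 77 mitochondrial ribosomal protein genes 1 rose and 13 fell, 18.2%, which is close to the 18.7% of all genes. From assembly factors to inner membrane carriers, 4.17% to 19.0% of each list was called.

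Without any 1 of the siRNA samples limma called 3 members (18.3% and 20% of all genes), and without any 1 of the plasmid samples 2 (6.7% to 9.1%), fewer than the 5 above. With other scalings the split was 11 higher and 0 lower by median centring, 8 and 4 by normexp, 6 and 4 by quantiles and 6 and 4 in the authors' series table, with 16.2% to 23% of all genes called. Median centring moves the median of all genes by 0.23 here, and against its own all-gene median the members' median was 0.15 higher, as in the scaling used, while by normexp the 2 medians were equal to 2 decimals.

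**Figure D5:**
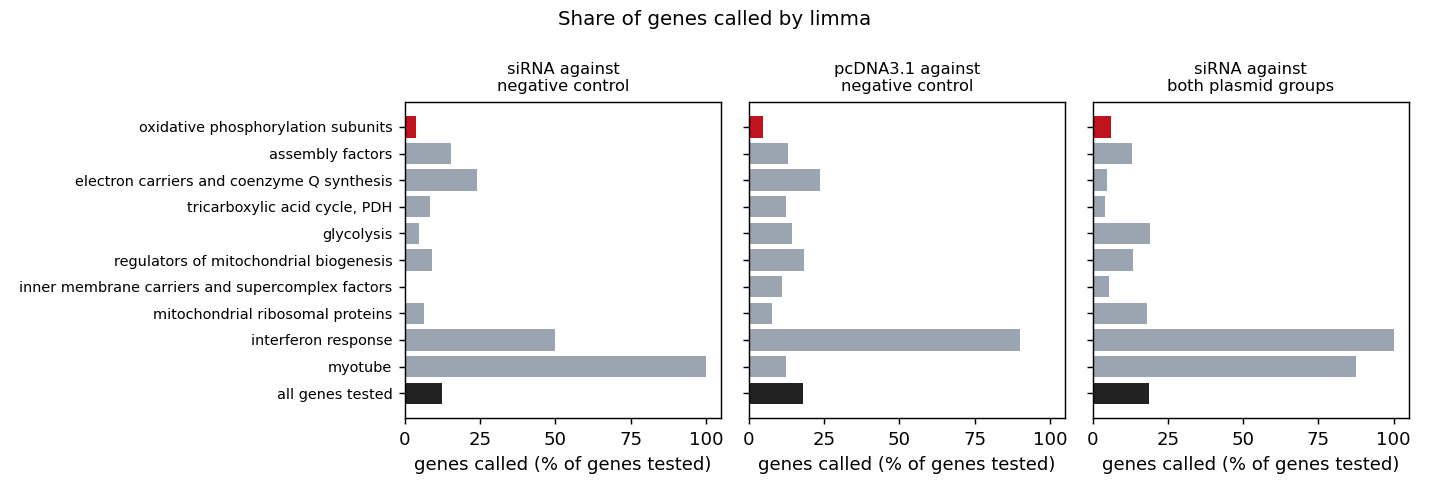
Share of tested genes called by limma (x axis, percent) in 3 comparisons for the 82 subunit genes (red), 9 other gene lists (grey) and all genes (black). The subunit genes stand at 3.66%, 4.88% and 6.1%, against 12.4%, 17.9% and 18.7% of all genes.

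No gene of the remaining isoform sets or of complex II was called. For Cox6b, whose common form is Cox6b1 and whose testis form is Cox6b2, the common form read 2.62, 2.62 and 2.58 on the siRNA arrays, 2.37, 2.13 and 2.42 on the pcDNA3.1-MEG3 arrays, 2.33, 2.35 and 2.34 on the pcDNA3.1 arrays and 1.98, 2.34 and 1.99 on the negative control arrays. Its changes were 0.45, -0.08 and 0.18 in the siRNA against negative control, plasmid and pcDNA3.1 against negative control comparisons, with limma adjusted p = 0.16, 0.864 and 0.481. Cox6b2 read -1.90, -2.08 and -1.90 on the siRNA arrays, -2.99, -2.76 and -3.03 on the pcDNA3.1-MEG3 arrays, -2.74, -1.92 and -2.69 on the pcDNA3.1 arrays and -2.48, -2.68 and -2.10 on the negative control arrays, and pcDNA3.1 replicate 2 stood above the other plasmid arrays. Cox8a, the common form of subunit 8, read 6.15, 6.24 and 6.10 on the siRNA arrays, 5.5, 5.62 and 5.45 on the pcDNA3.1-MEG3 arrays, 5.93, 5.84 and 5.84 on the pcDNA3.1 arrays and 6.02, 5.67 and 6.03 on the negative control arrays. Its largest change was 0.48 between siRNA and plasmid arrays (SE 0.14, limma adjusted p = 0.071).

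The genes Atp5g1, Atp5g2 and Atp5g3 encode the same mature c subunit of the ATP synthase rotor ring. Atp5g1 read 4.78, 4.77 and 4.70 on the siRNA arrays, 4.95, 4.87 and 4.93 on the pcDNA3.1-MEG3 arrays, 5.14, 5.23 and 5.10 on the pcDNA3.1 arrays and 5.03, 4.51 and 4.63 on the negative control arrays. Atp5g2 read 6.21, 6.18 and 6.20 on the siRNA arrays, 6.02, 5.94 and 5.99 on the pcDNA3.1-MEG3 arrays, 6.36, 6.28 and 6.29 on the pcDNA3.1 arrays and 6.37, 5.84 and 6.38 on the negative control arrays. Atp5g3 read 5.80, 5.74 and 5.82 on the siRNA arrays, 5.57, 5.19 and 5.59 on the pcDNA3.1-MEG3 arrays, 5.81, 5.86 and 5.76 on the pcDNA3.1 arrays and 5.96, 5.38 and 6.0 on the negative control arrays. All 3 genes were lower on negative control replicate 2 than on replicate 1, and the siRNA arrays of all 3 lay inside the range of the other 9 arrays. Probes of such related genes and of their pseudogenes may share target sequence, which the files do not settle.

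Succinate dehydrogenase, complex II, has no mitochondrially encoded subunit and also serves the tricarboxylic acid cycle. Sdha read 3.69, 3.73 and 3.70 on the siRNA arrays, 3.32, 3.25 and 3.31 on the pcDNA3.1-MEG3 arrays, 3.47, 3.49 and 3.47 on the pcDNA3.1 arrays and 3.53, 3.41 and 3.48 on the negative control arrays. Sdhb, the iron-sulfur subunit, read 4.68, 4.64 and 4.68 on the siRNA arrays, 4.60, 4.26 and 4.54 on the pcDNA3.1-MEG3 arrays, 5.05, 4.95 and 5.05 on the pcDNA3.1 arrays and 5.12, 4.21 and 5.10 on the negative control arrays. For Sdhc, a membrane anchor, all 3 negative control arrays stood above the other 9. For Sdhd, the other anchor, the negative control arrays overlapped each of the other groups. The pcDNA3.1-MEG3 arrays of Sdhd stood below all pcDNA3.1 and siRNA arrays. Sdhc read 3.83, 3.67 and 3.83 on the siRNA arrays, 3.72, 3.73 and 3.72 on the pcDNA3.1-MEG3 arrays, 3.84, 3.85 and 3.86 on the pcDNA3.1 arrays and 4.56, 4.01 and 4.59 on the negative control arrays. Sdhd read 3.83, 3.61 and 3.75 on the siRNA arrays, 3.57, 3.59 and 3.52 on the pcDNA3.1-MEG3 arrays, 3.73, 3.75 and 3.68 on the pcDNA3.1 arrays and 3.81, 3.39 and 3.78 on the negative control arrays. None of the 4 was called in any of the 4 comparisons, with changes between -0.58 (Sdhb, pcDNA3.1-MEG3 against pcDNA3.1) and 0.34 (Sdhb, pcDNA3.1 against negative control). The intervals are wide: the SE of a change was 0.21 log2 at the median member in the plasmid and pcDNA3.1 against negative control comparisons and 0.68 at the largest, so a missed call does not show equal levels.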

How the data were processed

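Total RNA was hybridised to 12 one-colour Agilent arrays, 3 in each of 4 groups taken from the labels. Per the file headers, the authors scanned the arrays and extracted spot intensity with Agilent Feature Extraction 11.0.1.1 (array design 026655), whose processed signal is background-corrected; the flags for control, outlying, saturated and well above background spots come from the same files, per the file headers. A table of intensity values for 30732 probes was also deposited, with its scale and centring not stated; its column medians were 276 to 277 and each column ranked its probes as the array did (lowest rank correlation 0.9999).

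Control spots (1377 of 44397 per array) and outlying spots were dropped, and no spot was saturated. Processed signals were averaged per probe, taken to the log2 scale and then centred on each array's 75th percentile. Probes had to be detected well above background throughout at least 1 group (29607 of 39429 passed), and the brightest probe stood for each of 24571 genes. Accessions were named through the RefSeq table of GRCm38.p6, which keeps older symbols such as Atp5a1. Replicates 1 and 3 of each group were averaged, a choice made from earlier results of these data, which left 8 samples, 2 per group. In the siRNA and plasmid groups they lay at 1 slide position and were closest to each other, and replicate 2 also differed from them by less than the noise between spots. In the negative control they lay at 2 positions. All 4 comparisons came from 1 limma fit (version 3.58.1, R 4.3.3, lmFit, then eBayes with 4 residual degrees of freedom and a prior of 1.9), with Benjamini-Hochberg adjustment over all genes tested and a threshold of 0.05. The fit was tested on simulated data. The number of arrays limits the precision.

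Members and gene lists were chosen with earlier results of these data known. Full values were given per comparison and complex for the called members with the largest change, up to 4, or else the furthest uncalled member, and for the isoform sets and complex II. Genes of the other lists were named from the called ones with the largest change, up to 2 in each direction. The alternatives were other background corrections and scalings, probe rules, sample sets, blocks and left-out samples. Because the files hold no mean signal, normexp used the median signal. Values within each scan of the plasmid slide were added after seeing the data. Counts and medians cover all members tested, and 1 of them is not reported by name or drawn here. Array replicate numbers did not pair samples: the deviations of same-numbered arrays correlated at -0.07 to 0.03.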

Additional observations from a re-analysis of the deposited data

How the results depend on the processing

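Counts of called members depended on the settings more than single values did. Of the alternatives for single members, 256 were unchanged, 49 lost a call, 22 gained one and 0 reversed. Unchanged means the same direction and side of the threshold. The 256 include the values within each scan of the plasmid slide, which carry no test and could keep only their direction. Cox7a1 and Cox7b2 kept their calls between siRNA and plasmid arrays in all 18 alternatives run, with log2 changes of 0.88 to 1.20 and 0.68 to 1.59. Between siRNA and negative control arrays they lost them in 4 and 2 of 16, with limma adjusted p of up to 0.176 and 0.174. Atp5o lost its call in 9 of 16 alternatives and Uqcrq between siRNA and plasmid arrays in 11 of 18. In the order pcDNA3.1-MEG3 against pcDNA3.1, siRNA against negative control, pcDNA3.1 against negative control and siRNA against both plasmid groups, limma called 0, 3, 4 and 5 members. Treating the 12 arrays as 12 samples gave 7, 19, 20 and 37, and with the replicate block added 6, 20, 20 and 34. Of all genes these called 12.3%, 40.2%, 49.3% and 52.1%, and with the block 9.27%, 37.9%, 46.8% and 50.5%. They count replicates 1 and 3 as separate samples. The replicate block on 8 samples gave 0, 3, 3 and 3 (0.00407%, 7.5%, 12.7% and 13.7% of all genes). The scan as a random block gave 6, 38, 39 and 52 (9.94%, 58.5%, 67.6% and 70% of all genes), with a consensus correlation of -0.32. Fitting only the groups compared gave 7 in the plasmid comparison, 0 between siRNA and negative control and 32 between siRNA and plasmid arrays (7.96%, 0.648% and 38.4% of all genes). Of these 7, 6 were higher on the arrays labelled pcDNA3.1-MEG3 and 1 was lower. Among the higher were Ndufa10, Atp5d, Uqcrc1, Ndufa11 and Ndufs8 (limma adjusted p = 0.0162 to 0.043), which the main fit did not call. Quantile normalization gave 6, 10 and 10 in the comparisons outside the plasmid slide (14.0%, 19.8% and 20.8% of all genes). The values the authors deposited as a series table gave 6, 9 and 10 (14.0%, 20.1% and 20.7%). Median centring gave 11 between pcDNA3.1 and negative control (21.3% of all genes) and 11 between siRNA and plasmid arrays (23.0%), and normexp 12 in the second of these (16.2%). Without the filter on dim probes there were 2 and 3 in these comparisons (10.1% and 10.9% of all genes). The mean of all probes gave 5 between siRNA and negative control (12.9%). Leaving out 1 sample gave 0 in the plasmid comparison, 1 to 25 between siRNA and negative control, 1 to 35 between pcDNA3.1 and negative control and 2 to 3 between siRNA and plasmid arrays. The cause was not tested for the scalings and probe rules. With 2 samples per group, the smallest effects that could be called were limited by the spread of so few samples. The SE of a gene pools its spread over all 4 groups, so plasmid SEs also hold the negative control spread. Between samples, the members' median level had an SD of 0.37 in the negative control. In the pcDNA3.1-MEG3, pcDNA3.1 and siRNA groups it was 0.05, 0.06 and 0.05. The part of this spread in the changing counts was not tested.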
